A study of Mus musculus with 8 samples.

Results

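In the ATAC6 library, 1937 of 28969 called peaks (6.69%, 95% Wilson interval 6.405 to 6.98) had no peak of any of the 6 other libraries within 500 bases, and these are called ATAC6-only regions here. They were chosen by the measured peak lists themselves, from 164103 peaks in 7 libraries, so their presence in ATAC6 and absence elsewhere is the rule and not a result. By the same rule, 2454 peaks stood alone in ATAC1, 4669 in ATAC2 and 3837 in ATAC5, against 150 in ATAC3, 113 in ATAC4 and 82 in ATAC7.

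The study separated mesenchymal stromal cells of the mouse bone marrow, taken as the Sca-1 and PDGFRα positive fraction without blood and endothelial cells, into subpopulations and compared their open chromatin by ATAC-seq. All groups, ATAC1 to ATAC7, were stromal cells from the marrow of C57BL/6J mice, wild type and 6 weeks old, with no allele or treatment that differed between them. Each title had 1 library, the labels tie no title to a sorted cluster, and all lists were called against an Input control. Every value below therefore describes 1 library without a replicate, and intervals cover counting error only.

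In ATAC-seq the Tn5 transposase cuts DNA that is free of nucleosomes, so that a peak of reads marks an accessible stretch. Accessible stretches at transcription start sites are often shared by many cell types, whereas those far from genes, among them enhancers, vary more between cell types and are bound by combinations of sequence-specific factors. A peak that is missing from a list means that none was called there at the authors' threshold, and weaker accessibility can be present.

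The following sequences are shown because the motifs counted below occur in them. They are given on the plus strand of mm9. In the first group, capitals mark TGANTCA, the element bound by Fos and Jun dimers (AP-1), in an intron of Oxct1 at chr15:4051164-4051246 and in an intron of Shc4 at chr2:125521710-125521881. In the next sequence, capitals mark AGATAAG or its reverse complement, an element bound by GATA factors, in an intron of Fam174b at chr7:80910560-80910716. In the last, capitals mark repeated CCACGCC upstream of Dgcr6 at chr16:18036591-18036733.
AP-1, Oxct1: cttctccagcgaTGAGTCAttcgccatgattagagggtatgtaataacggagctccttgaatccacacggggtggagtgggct
AP-1, Shc4: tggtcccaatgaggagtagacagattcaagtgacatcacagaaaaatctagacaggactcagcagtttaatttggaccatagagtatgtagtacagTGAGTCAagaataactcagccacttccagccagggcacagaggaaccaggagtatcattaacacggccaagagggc
GATA, Fam174b: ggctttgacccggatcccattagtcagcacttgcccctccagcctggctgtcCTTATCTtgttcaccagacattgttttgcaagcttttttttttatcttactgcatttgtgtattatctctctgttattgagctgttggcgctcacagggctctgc
CCACGCC, Dgcr6: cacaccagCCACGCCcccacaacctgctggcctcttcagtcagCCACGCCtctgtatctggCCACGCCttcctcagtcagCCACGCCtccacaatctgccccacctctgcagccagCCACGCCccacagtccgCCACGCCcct

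ATAC6-only regions were weak peaks. The caller's ranking ran from 1 for the strongest ATAC6 peak, and the best ATAC6-only region had rank 9607. None lay in the 3 strongest deciles of the list (0 of 2897 peaks in each, upper Wilson bound 0.132%). Their share then rose in every decile, from 0.587% (17 peaks) in decile 4 to 24.1% (698 peaks, 22.6 to 25.7) in decile 10.

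**Figure D1:**
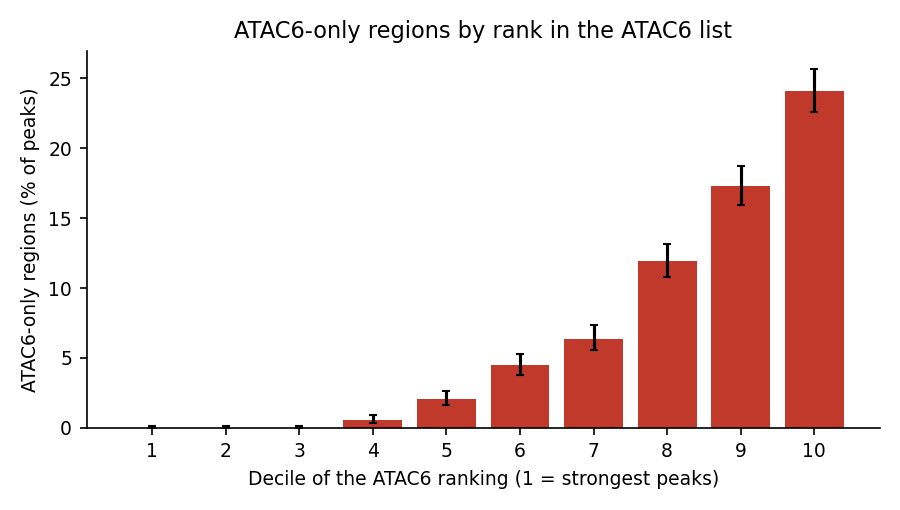
Share of ATAC6-only regions (y, % of peaks) in each decile of the ATAC6 ranking (x, 1 is the strongest). Bars are shares and lines are 95% Wilson intervals, and the share rises from 0 in the first 3 deciles to 24.1% in the last.

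The read counts behind the regions were low. The median ATAC6-only region held 52 library reads, with a range of 25 to 241, and the other 27032 ATAC6 peaks held a median of 133, with a range of 24 to 4910. The Input reads followed the same order, with a median of 10 against 26. The authors' fold over Input, a scaled ratio of these counts, was therefore closer between them, at 8.22 (95% interval of the median 7.87 to 8.54) against 10.2 (10.2 to 10.3).

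The counts belong to the outer region around each peak, so width enters them. Per 1000 bases of outer region the median was 206 library reads against 307, and 37.9 Input reads against 56.5. The peaks themselves were narrower, with a median of 129 bases against 165. A fold of at least 5 was reached by 80.7% of the regions and by 89.8% of the other peaks. Among the 17426 other peaks from rank 9607 on, the median was 90 reads, 17 Input reads and a fold of 8.47. There were 12 regions with 0 Input reads, whose fold carries no meaning.

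The limit of 500 bases split peaks that were much alike. Of the 3 regions nearest outside it, one near Dennd2c lay 502 bases from an ATAC2 peak (144 reads, 20 Input) and one in Ralgds 506 bases from an ATAC3 peak (112 reads, 19 Input). The other one lay between genes, 28812 bases from a start site of A130050O07Rik and 504 bases from an ATAC1 peak (59 reads, 13 Input). Of the 3 peaks just inside, one in Tmem120b lay 499 bases from an ATAC1 peak (154 reads, 27 Input), and those in Usp5 (76 reads, 12 Input) and Fam102a (69 reads, 13 Input) lay 497 bases from ATAC2 peaks. Most regions were farther away. The median gap to the nearest peak of another library was 7863 bases, 217 regions (11.2%) lay within 1000 bases, and 81 (4.18%) lay over 100 kb away. The outer regions, which are wider than the peaks, touched an outer region of another library in 31 cases (1.60%).

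The nearest peak belonged to ATAC2 for 691 regions (35.7%), to ATAC5 for 543 (28.0%) and to ATAC1 for 326 (16.8%). These libraries also had the longest lists, with 32280, 31479 and 24510 peaks. The same libraries led among ATAC6 peaks that had exactly 1 other library near them, with 2229 near ATAC2 alone, 1012 near ATAC5 alone and 334 near ATAC1 alone.

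ATAC6-only regions lay mostly away from start sites. The centre was within 1000 bases of an annotated start site in 305 regions (15.7%, 14.2 to 17.4), against 52.9% (52.3 to 53.5) of the other ATAC6 peaks. The share of the regions was 29.2% when only peaks with a shared base counted (3484 regions) and 30.2% with lists of equal peak number (676 regions). Among the other peaks from rank 9607 on it was 34.9% (34.2 to 35.6), so a difference remained among peaks of that rank range. Within the last decile of the ranking the values were 13.2% and 23.6%. The regions of other single libraries were also poor in start sites, with 13.2% in ATAC1-only, 8.63% in ATAC2-only and 16.8% in ATAC5-only regions.

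The distances showed where the regions lay instead. Between 10 and 50 kb from a start site were 709 regions (36.6%, 34.5 to 38.8), against 19.4% of the other ATAC6 peaks. The band of 1 to 5 kb held 22.0% against 12.3%. The band over 100 kb was small in both, with 3.87% of the regions and 2.74% of the other peaks. The median distance was 9749 bases against 707. With peaks near start sites set aside, 58.8% (56.4 to 61.1) of the regions and 57.5% (56.7 to 58.4) of the other peaks lay over 10 kb away, and these intervals overlap.

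**Figure D2:**
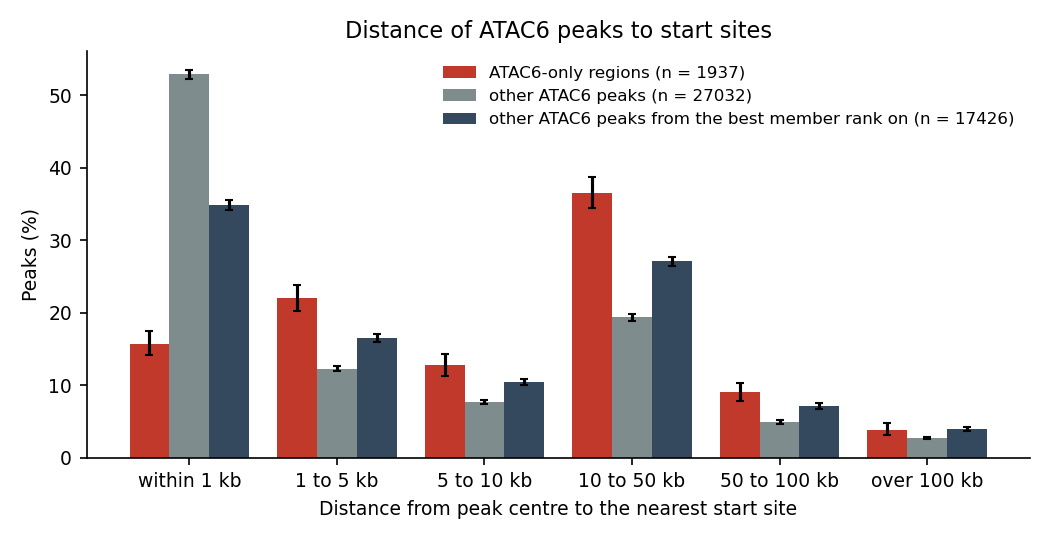
Share of peaks (y, %) by distance from the peak centre to the nearest start site (x), for the 1937 ATAC6-only regions, the 27032 other ATAC6 peaks and the 17426 of them from rank 9607 on. Lines are 95% Wilson intervals. Within 1 kb the regions have 15.7% and the other peaks 52.9%, and between 10 and 50 kb they have 36.6% and 19.4%.

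By annotation, 991 regions (51.2%, 48.9 to 53.4) lay in introns and 789 (40.7%, 38.6 to 42.9) between genes. Introns held 34.9% of the other peaks, and 42.7% (42.2 to 43.3) of those lay between genes. Untranslated regions held 3.98% of the regions against 14.9%, and coding exons 2.32% against 5.18%. The difference in introns was smaller once start sites were set aside, at 52.5% (50.03 to 54.9) of the 1632 distal regions, those over 1000 bases from a start site, and 46.5% (45.6 to 47.3) of the other distal peaks. Between genes lay 44.1% (41.7 to 46.5) of the distal regions, fewer than the 49.2% (48.3 to 50.04) of the other distal peaks.

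Base composition differed as well. The 200 bases around the centre had a median GC content of 50% in ATAC6-only regions and 57% in the other ATAC6 peaks. At least 10 CpG dinucleotides were present in 10.1% (8.81 to 11.5) of the regions against 44.6% of the other peaks. Among distal peaks alone the medians were 49.5% and 51.5%, and at least 10 CpG were present in 4.23% (3.35 to 5.32) against 11.03% (10.5 to 11.6).

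Across all ATAC6 peaks these measures moved with the number of other libraries that had a peak within 500 bases. The share near a start site was 15.7% with no other library, 17.5% with 1, 23.1% with 2 and 85.4% with all 6. Median reads went from 52 through 65 and 82 to 451.5, and median GC from 50% to 64.5%. ATAC6-only regions were the low end of this order, and their interval for start sites overlapped that of peaks shared with 1 library (16.3 to 18.7).

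**Figure D3:**
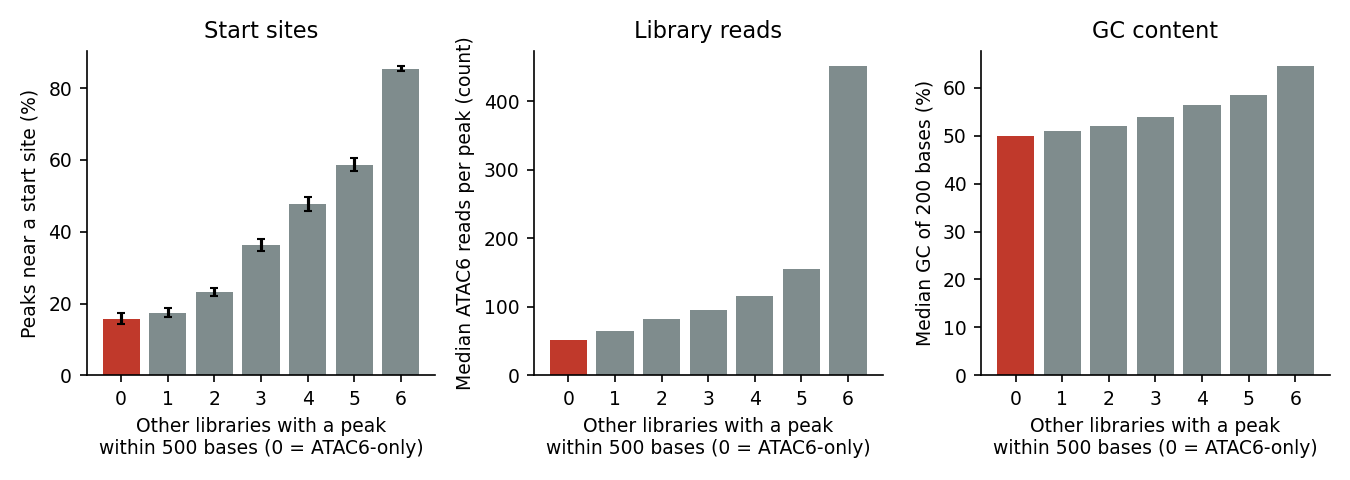
ATAC6 peaks by the number of other libraries with a peak within 500 bases (x, 0 is ATAC6-only). The panels show the share near a start site (y, %, with 95% Wilson intervals), the median ATAC6 reads per peak (y, count) and the median GC of 200 bases (y, %). Each measure is lowest for ATAC6-only regions, at 15.7%, 52 reads and 50%.

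Most regions had no other ATAC6-only region within 10 kb, and no share for evenly spread regions was computed. Another ATAC6-only region lay within 10 kb of 180 of them (9.29%), and 6 runs of 3 were found, with the nearest start sites at Ckap4, Fam49b, Gm6970 and Neurl1a, Ankrd6, Gltscr2 and Lrrc28. Any other ATAC6 peak lay within 10 kb of 924 regions (47.7%, 45.5 to 49.9), against 60.4% (59.8 to 60.9) of the other peaks. By chromosome, the share of ATAC6 peaks that were ATAC6-only ran from 5.22% to 7.84% on the autosomes. It was 4.27% (28 of 656, 2.97 to 6.10) on X and 0 of 16 on Y.

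The 10 best-ranked regions were of 2 kinds. Near start sites lay those of Map3k6, a kinase of the MAP kinase cascade (chr4:132803903-132803988, 149 reads, 19 Input reads), Dmpk, the kinase gene whose repeat expands in myotonic dystrophy (chr7:19671490-19671597, 170 reads, 26 Input), and Aqp8, a water channel (chr7:130605694-130605823, 109 reads, 11 Input). Their folds over Input were 10.3 to 15.6. The regions of Mxra7 (121 reads, 57 Input, fold 3.34), Tmem180 (104 reads, 44 Input, fold 3.72) and C77080 (111 reads, 44 Input, fold 3.97) also lay at start sites, and their Input counts were the highest of the 10. Their GC content was 72% to 81.5%, against 49% to 55.5% for Map3k6, Dmpk and Aqp8.

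The others of the 10 were distal. Of these, 2 lay in introns, namely of Oxct1, a mitochondrial enzyme of ketone body use (178 reads, 20 Input, fold 14.01), and of Kcnh2, a cardiac potassium channel (145 reads, 32 Input, fold 7.13). Another lay 14491.5 bases from a start site of Gtf3c5, a subunit of an RNA polymerase III factor, and held 214 reads against 31 Input reads. The last lay 16291 bases upstream of Dgcr6, with 110 reads against 14 Input reads. This is the region printed above with 6 copies of CCACGCC.

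The start-site regions as a whole had more Input than the distal ones. Their median was 61 reads against 16 Input reads and a fold of 6.22 (5.62 to 6.82), whereas distal regions had 51 reads, 10 Input reads and a fold of 8.56 (8.26 to 8.85). The median GC content was 57.5% in the former and 49.5% in the latter, and its part in the Input counts was not tested.

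Protein-coding genes had 268 of these regions within 1000 bases of a start site, at 266 genes. For 114 of the 266 genes (42.9%, 37.1 to 48.9) no other library had a start-site peak. The rule bars other peaks within 500 bases, so this count is largely fixed by it, and over all 22367 genes 117 (0.523%) had a start-site peak in ATAC6 alone. For 90 of the 266 (33.8%, 28.4 to 39.7) all 7 libraries had one, below the 71.5% of the 11525 genes with an ATAC6 start-site peak. The rule lowers this count too. The regions at the 114 genes held a median of 61 reads (33 to 121) against 19 Input reads, at a median GC of 65.5%. After Mxra7, Aqp8, Tmem180 and C77080, the best-ranked were at E130309D14Rik (94 reads, 15 Input), Mlh3, a mismatch repair gene (117 reads, 58 Input), Rab3b, a GTPase of vesicle release (85 reads, 21 Input) and Trfr2, the second transferrin receptor (71 reads, 10 Input). These last genes were named after their values were seen.

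Each region was assigned to the protein-coding gene with the nearest start site within 100 kb. This placed 1778 regions (91.8%) at 1553 of 22367 genes (6.94%, 6.62 to 7.28). A single region fell to 1368 genes, 154 genes had 2, 24 had 3 and 7 had at least 4. Genes with a region were longer, with a median of 35101 bases against 15427 for all protein-coding genes. Gene length moves with the assignment, and its part in the result was not tested.

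A start-site peak of ATAC6 was present in 1183 of the 1553 genes (76.2%, 74.0 to 78.2), against 51.5% of all protein-coding genes, but regions at start sites count as such peaks. A start-site peak that was not itself an ATAC6-only region was present in 1051 genes (67.7%, 65.3 to 70.0), against 50.9% (50.3 to 51.6) of all genes. Among the 1290 genes whose regions were all distal, 303 (23.5%, 21.3 to 25.9) lacked a start-site peak in all 7 libraries, against 43.3% of all genes. At least 5 further ATAC6 peaks were assigned to 300 genes (19.3%), against 4.50% of all genes, and another 300 had none.

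Most of the genes with the most regions were large. Zmiz1, a co-activator related to the PIAS proteins (chr14:26278671-26486229), had 5 regions with 71, 48, 80, 67 and 85 reads and 15 further ATAC6 peaks. Prex1, an exchange factor for Rac (chr2:166391842-166539332), also had 5, with 47, 62, 50, 39 and 50 reads, beside 2 further peaks. Ets1, a transcription factor (chr9:32443806-32565405), had 4, with 54, 54, 49 and 81 reads. All had a start-site peak in every library.

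Pigk, a subunit of the enzyme that attaches GPI anchors (83, 32, 54 and 51 reads), 4933407C03Rik (58, 60, 40 and 81 reads) and Lrrc28 (39, 62, 68 and 48 reads) had 4 regions each as well. Kcna5, a voltage-gated potassium channel gene (chr6:126482571-126485573), differed from them. Its 4 regions, with 71, 82, 44 and 38 reads, lay 28.5 to 59.7 kb from its start site and outside the gene itself, and it had no further ATAC6 peak and no start-site peak in any library. Lclat1, Cdk14 and Rnf213 had 3 regions each, with 40 to 102, 59 to 102 and 40 to 74 reads.

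The gene lists were read against the background of 6.94% of protein-coding genes with a region. Genes with a region were longer and more often had an ATAC6 start-site peak, as above, and the lists were not matched for either. Of 359 listed genes in 17 lists, 356 were matched. The unmatched genes were Cebpd, Gfi1 and Ahsp. The median number of regions per gene was 0 in every list, as it was over all genes, and with 17 to 42 genes a list the intervals are wide.

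Among the signalling lists, the Wnt pathway had 5 of 36 genes with a region (13.9%, 6.08 to 28.7). Lgr4, a receptor for R-spondins that strengthens Wnt signals, had 3 regions in its introns with 78, 43 and 53 reads against 9, 3 and 7 Input reads. The nuclear partners of beta-catenin were represented by Tcf7l2 (57 reads, 2 Input), Lef1 (81 reads, 45 Input) and Tcf7l1 (35 reads, 7 Input), and the receptors by Fzd7 (72 reads, 15 Input). The TGF-beta and BMP pathway had 6 of 42 (14.3%, 6.72 to 27.8). Its inhibitory members Smad6 (78 reads, 18 Input) and Smad7 (63 reads, 9 Input) ranked best. The activin receptor gene Acvr2a (43 reads, 14 Input) and the activin subunit gene Inhba (86 and 37 reads, 10 and 7 Input) came next, and Bmp6 and Acvrl1 also had 1 region each.

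Of the collagen and matrix list, 7 of 42 genes (16.7%, 8.32 to 30.6) had a region, with 10 regions in all. Has2, the synthase of hyaluronan, had one 1030.5 bases from its start site (67 reads, 8 Input). Col1a2, a chain of collagen I, had regions 8.98 kb and 90.4 kb away with 56 and 33 reads. The collagen V chain genes Col5a1 (59, 69 and 51 reads) and Col5a2 (37 reads) were followed by Sparc, Col15a1 and Fmod.

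The chondrocyte list had 5 of 18 genes with a region (27.8%, 12.5 to 50.9). Runx3 (70 reads, 15 Input), Hapln1, which links aggrecan to hyaluronan (43 reads, 7 Input), Trps1 (71 reads, 8 Input) and Sox6 (35 reads, 7 Input) had theirs in introns or between genes. The region assigned to Comp, a cartilage matrix gene (45 reads, 11 Input), lay inside Crtc1. Neither Sox9 nor Col2a1 had one. The Klf family had 4 of 17 (23.5%, 9.56 to 47.3), namely Klf6 (100 reads, 12 Input), Klf5, Klf13 and Klf3, with 46 to 58 reads in the last 3.

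The osteoblast list had 3 of 18 (Col1a2, Dlx6 and Dmp1), the adipocyte list 3 of 17 (Klf5, Cebpa and Cd36) and the mesenchymal stromal list 2 of 18. The latter were Twist1, a regulator of mesenchyme (50 reads, 8 Input), and Nt5e, which encodes CD73 (68 reads, 7 Input). Of the same 18 stromal markers, 4 (22.2%) had a start-site peak in ATAC6, against 51.5% of all protein-coding genes. These were Pdgfra, Pdgfrb, Twist1 and Nt5e. No library had one at Ly6a (which encodes Sca-1), Lepr, Prrx1 or Dcn. At Cxcl12 there was one in 2 libraries but not in ATAC6. An ATAC6 start-site peak was present at 11 of 18 osteoblast (61.1%), 13 of 18 chondrocyte (72.2%) and 8 of 17 adipocyte genes (47.1%). The AP-1 and immediate early list had a region at 2 of 22 genes, Fosl1 (72 reads, 20 Input) and Atf3 (61 reads, 25 Input), while 21 of the 22 (95.5%) had a start-site peak. The niche factors had 1 of 22, Flt3l, whose region also lies in Rpl13a.

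Markers of cell types that the sort was meant to remove had regions in counts near the background of 6.94%. The haematopoietic stem and myeloid list had 1 of 17, at Gata2 (135 reads, 58 Input, fold 3.66), a gene with a start-site peak in 2 libraries. The B lymphoid list had 2 of 18, Ikzf1 (74 reads, 7 Input) and Bach2 (35 and 37 reads). The erythroid list had 0 of 17, which allows up to 18.4% by the Wilson bound, and the endothelial list had 1 of 18, Vwf, with 2 regions (119 and 39 reads, 11 and 7 Input). Start-site peaks of ATAC6, whatever their sharing, were present at 10 of 17 erythroid markers (58.8%), near the 51.5% of all genes, among them the globin gene Hbb-b1 and the red cell membrane gene Slc4a1, and absent from Gata1, Klf1 and Alas2. They were present at 9 of 17 haematopoietic markers (52.9%), also near that share, among them Spi1 and Tal1, but not at Ptprc, which encodes CD45, Mpo or Elane. Of 18 B lymphoid markers 6 (33.3%) had one, namely Pax5, Ebf1, Ikzf1, Bach2, Foxo1 and Vpreb1, while Cd79a and Cd79b had none. Of 18 endothelial markers 4 (22.2%) had one, namely Erg, Fli1, Vwf and Egfl7, while Pecam1 and Cdh5 had none. At Gata1, Alas2, Mpo, Elane, Cd79b and Cdh5 no library of the series had a start-site peak. The part of such cells in the ATAC6-only regions was not tested.

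The neural list had 4 of 18 genes with a region and the skeletal muscle list 2 of 18. Sox10, Sox2 and Foxd3 of the former and Myod1, Myf5 and Myog of the latter had no region, and no start-site peak in any library. An ATAC6 start-site peak was present at 7 of 18 neural (38.9%) and 2 of 18 skeletal muscle genes (11.1%), against 51.5% of all genes. Pax6, a transcription factor of eye and brain, had a region 25 bases from a start site (chr2:105515484-105515646, 68 reads, 17 Input). Tubb3, the neuronal tubulin, had one 38.5 bases away (52 reads, 19 Input) and a further one (58 reads, 29 Input), and Cdh15, the cadherin of muscle precursors, had one 332.5 bases away (81 reads, 24 Input). These 3 genes had a start-site peak in ATAC6 and in no other library. The rule bars other peaks within 500 bases and so largely fixes this, and over all 22367 genes 117 (0.523%) had one in ATAC6 alone. The regions of Tubb3 and Cdh15 also overlap Gm20388. S100b, a calcium-binding protein of glia, Pax3, a regulator of muscle and neural crest precursors, and Mbp, the myelin basic protein, had distal regions, with 69 reads, 68 reads, and 107 and 45 reads. Pln, a calcium pump regulator, was the only gene of the smooth muscle list with one, at 59 reads against 0 Input reads.

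Sequence content was not used by the rule. Windows of 200 bases around the centres were searched on both strands for 28 motifs and compared with windows centred 2000 bases to either side, the flanks. In 10 motifs the interval of the ATAC6-only regions lay above that of the flanks, and in 2 it lay below. The median GC content was 50% in the regions and 46.5% in the flanks, and its part in these differences was not tested. Matches of different motifs may share bases, and a match is a string of letters, not a bound site.

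The AP-1 motif TGANTCA showed the widest difference in percentage points. It was present in 17.4% (15.8 to 19.2) of the regions and in 6.17% (5.45 to 6.97) of the flanks, against 4.14% of windows at all protein-coding start sites. The GC box GGGCGG, an element of SP and KLF factors, was present in 12.9% against 4.39%, and the core AGNNGGCNC of the insulator factor CTCF in 18.3% against 11.3%. The GC box was more frequent in the other ATAC6 peaks (34.8%) and at start sites (39.95%) than in the ATAC6-only regions, and the CTCF core was in 19.004% of the other peaks and 17.6% of start sites. Among distal peaks the GC box was in 8.95% (7.66 to 10.4) of ATAC6-only regions against 13.2% (12.6 to 13.8), and the CTCF core in 18.1% (16.3 to 20.02) against 15.8% (15.2 to 16.5), where the intervals overlap. A match to AP-1, the GC box or the CTCF core was found in fewer than 1 in 2 windows, since 1119 of 1937 had none.

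The remaining motifs above the flanks were CAGCTG, an E-box (14.4% against 10.3%), the NFI element TTGGCA (13.4% against 10.2%), TGTGGTT of RUNX factors (7.69% against 5.27%), the CACCC box CCACACCC (4.08% against 1.81%), AGATAAG of GATA factors (4.13% against 2.19%) and the EBF and NRF1 motifs, at 1.14% and 0.568%. Against the other ATAC6 peaks the order turned for the NRF1 motif, which was in 3.66% of those. The E-box, in 13.1% of them, and the RUNX motif, in 5.10%, stayed less frequent there than in the regions, with overlapping intervals for the E-box. Among distal peaks the RUNX motif was in 8.33% of ATAC6-only regions and 8.24% of the others, the E-box in 14.8% and 16.0%, and the NFI element in 13.7% and 12.6%, with overlapping intervals for each. The ATAC1-only regions held the E-box in 20.7% and the RUNX motif in 9.05%. Motifs of HOX-PBX (5.63% against 8.44%) and SOX factors (3.41% against 6.27%) were below the flanks. CCACGCC, chosen after the printed sequences were seen, was present in 4.49% (3.66 to 5.51) of regions, 1.60% of flanks and 7.35% of the other ATAC6 peaks. Among distal peaks it was in 3.74% (2.92 to 4.77) of the regions and 3.24% (2.95 to 3.57) of the others, which is within the interval.

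**Figure D4:**
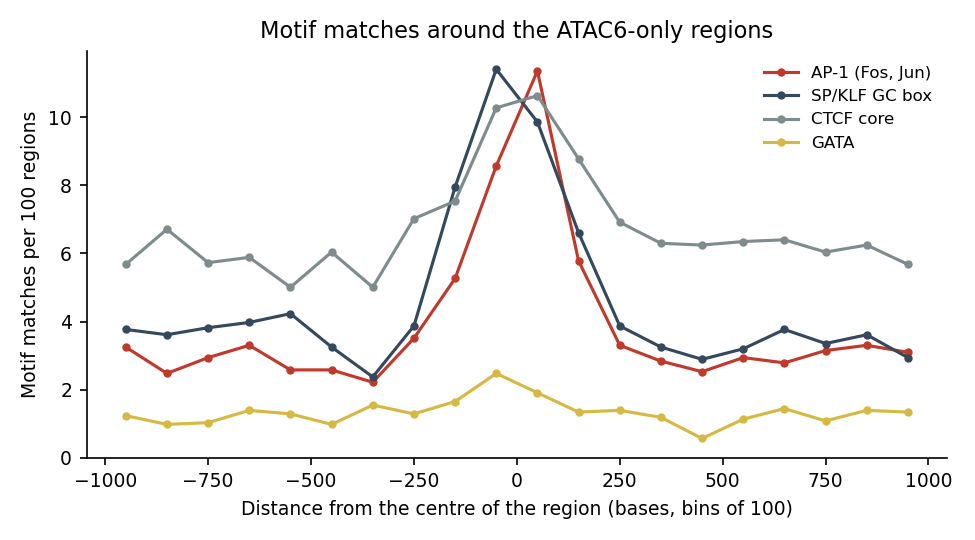
Matches per 100 ATAC6-only regions (y) in bins of 100 bases by distance from the centre (x, bases), for 4 motifs. AP-1 reaches 11.4 and the GC box 11.4 matches per 100 regions beside the centre, the CTCF core 10.6, and GATA 2.48.

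Against the other ATAC6 peaks the order for AP-1 depended on start sites and on rank. Over all distances it was present in 17.4% (15.8 to 19.2) of ATAC6-only regions and in 14.5% (14.1 to 14.9) of the other ATAC6 peaks, but in 19.7% (19.2 to 20.3) of those from rank 9607 on. Among distal peaks, AP-1 was present in 18.8% (17.0 to 20.8) of ATAC6-only regions and in 25.7% (24.9 to 26.5) of the other ATAC6 peaks. ATAC2-only regions had 29.6% (28.3 to 30.9), ATAC5-only regions 22.3% (21.0 to 23.6) and ATAC1-only regions 10.9% (9.75 to 12.2), here over all distances. ATAC6-only regions as a whole, at 17.4%, lay between those of ATAC5 and ATAC1.

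GATA was more frequent in ATAC6-only regions than in the other ATAC6 peaks, over all distances and among distal peaks alike. So were the MEF2 motif and the nuclear receptor motif AGGTCANAGG, neither of which lay above the flanks. Among distal peaks MEF2 was in 4.35% (3.46 to 5.45) of the regions against 3.05% (2.76 to 3.36). The nuclear receptor motif was in 0.919% (0.558 to 1.51) against 0.385% (0.291 to 0.508). AGATAAG was present in 80 of 1937 ATAC6-only regions (4.13%, 3.33 to 5.11) and in 1.30% (1.17 to 1.44) of the other ATAC6 peaks, or 1.69% (1.51 to 1.89) of those from rank 9607 on, and among distal peaks in 4.11% (3.25 to 5.18) against 1.89% (1.67 to 2.14). It was present in 5.70% (4.85 to 6.69) of ATAC1-only regions, but in 0.792% (0.575 to 1.09) of ATAC2-only and 1.25% (0.945 to 1.65) of ATAC5-only regions. The flanks of these last sets had 2.65% and 2.58%, so in them the motif was rarer in the peak than beside it.

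Over all distances, ATAC6-only regions and the other ATAC6 peaks were also compared with other windows and cuts. With windows of 100 bases GATA was present in 2.07% of ATAC6-only regions against 0.681% of the other ATAC6 peaks, and with 300 bases in 5.47% against 1.91%. The better-ranked 50% of the regions had 3.61% and the others 4.65%. Among regions with a fold of at least 5 it was 4.80%, against 1.33% of the other peaks. These alternatives were chosen after the first values were seen.

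Among ATAC6 peaks with 1 other library nearby, GATA was frequent where that library was ATAC1 or ATAC4. Of 238 distal peaks near ATAC1 alone, 30 had it (12.6%, 8.97 to 17.4), as did 5 of 35 near ATAC4 alone (14.3%, 6.26 to 29.4), against 11 of 2001 near ATAC2 alone (0.550%, 0.307 to 0.982) and 11 of 724 near ATAC5 alone (1.52%, 0.850 to 2.70). AP-1 had the reverse order, with 9.66% near ATAC1 alone and 32.8% near ATAC2 alone. ATAC6-only regions lay between the ATAC1 and ATAC2 sets for both motifs. GAGGAAGT, the motif of the myeloid and lymphoid factor PU.1, was present in 1.03% of ATAC6-only regions and of their flanks alike, and in 8.07% (7.06 to 9.21) of ATAC1-only regions. It was in 1.96% (1.80 to 2.13) of the other ATAC6 peaks. Among distal peaks it was in 0.980% (0.604 to 1.59) of the regions against 2.41% (2.16 to 2.69) of the others.

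**Figure D5:**
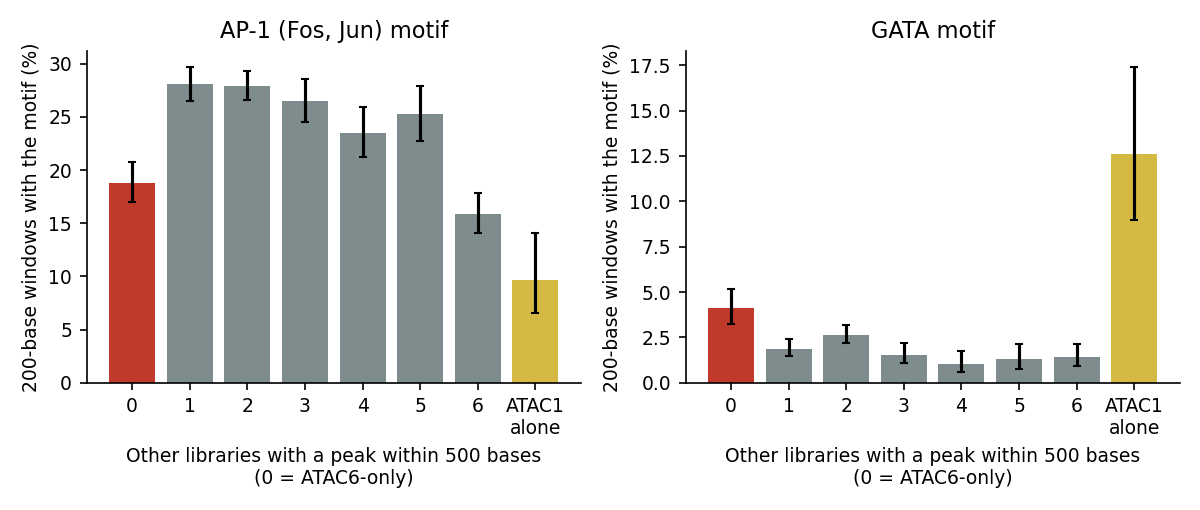
Share of 200-base windows (y, %) with the AP-1 or the GATA motif in distal ATAC6 peaks by the number of other libraries with a peak within 500 bases (x, 0 is ATAC6-only), with the distal peaks near ATAC1 alone at the right. Lines are 95% Wilson intervals. ATAC6-only regions have 18.8% AP-1 and 4.11% GATA, and peaks near ATAC1 alone have 9.66% and 12.6%.

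The 80 regions with GATA had a median of 51.5 reads, 8 Input reads and a fold of 10.3, against 52 reads, 10 Input reads and a fold of 8.06 in the regions without it. Of these, 13 (16.3%, 9.75 to 25.8) lay near a start site, a share within the interval of the others. Among the best-ranked distal ones that hold the motif inside the peak were the one printed above in Fam174b (76 reads, 8 Input) and one between genes 95903.5 bases from Avpr1a (59 reads, 8 Input). The 337 regions with AP-1 had a median of 51 reads and 9 Input reads, and 8.90% (6.31 to 12.4) of them lay near a start site, against 17.2% (15.4 to 19.1) of those without it. Both motifs were held by 9 regions, and whether this differs from their separate shares was not tested.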

How the data were processed

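ATAC-seq reads of 7 libraries, 1 per title, were aligned by the authors to mm9 with bowtie, and peaks were called per library against Input by the CisGenome two-sample analysis, at a p-value limit of 1e-05 and an FDR limit of 0.01. The submitters' processing notes also name DiffBind and bedtools. Read shift and duplicate removal are not given in the sources used here, and a missing shift would displace peak edges slightly. The deposited tables hold whole-number counts of library and Input reads in each outer region, the authors' fold (a ratio of the scaled library count to the Input count plus 0.01), and signal columns of the caller's statistic, which set the rank. The deposited tables give coordinates as inclusive. No sequencing depth beyond the counts in peaks was used.

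Here, gaps between peaks, start-site distances (GENCODE vM1, NCBIM37, which is mm9), GC content, motifs and gene assignment were computed with pandas 2.3.3, numpy 2.4.6, pysam 0.24.0 and scipy 1.17.1 under Python 3.11.15. Windows were 200 bases, flanks lay 2000 bases away, and genes were assigned within 100 kb. With 1 library per title and members selected on the measured lists, no test was run. Intervals are 95% Wilson intervals, or order-statistic intervals of medians, and cover counting error only. Peaks of 1 library are not replicates. The gap and motif steps were tested on simulated data.

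The members and lists were chosen with earlier results of these data known. Regions named were the 10 best-ranked, the 5 best-ranked at protein-coding start sites and the 3 on either side of the limit of 500 bases. Genes named were those of these regions, the 10 with the most regions and up to 4 per list, with others named after their values were seen. Of the 24 genes tied at 3 regions, those with the best rank were taken. Sequences planned were the 5 best-ranked distal regions and the best-ranked region at a start site, none over 300 bases. Only the one in Oxct1 held one of the 3 leading motifs, so further AP-1 and GATA regions, among the best-ranked with a match inside the peak, were chosen after seeing the data, and of the planned ones those in Oxct1 and near Dgcr6 were printed, the latter for its copies of CCACGCC. A planned share of repeats was not run, since the genome sequence in use carries no repeat marking.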

Additional observations from a re-analysis of the deposited data

How the results depend on the processing

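The motif alternatives were chosen after seeing the data. No paired analysis was possible because there is 1 library per title. Counts were taken as changed beyond 1.5 times, other values beyond their 95% interval. Absence of a peak depends on the depth and calling threshold of the other lists, and with 1 library per title no difference between ATAC6 and another library has a replicate check.

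The number of ATAC6-only regions went from 1937 to 3484 when only shared bases counted, to 1148 when a gap over 5000 bases was required and to 676 with the lists set to equal peak number. It was 4166 when absence from ATAC2 was not required and 2949 when absence from ATAC5 was not required. The other 9 of 14 alternatives kept it within the limit. The share near a start site went from 15.7% to 29.2% with shared bases only, 30.2% with equal peak number and 25.4% with a start-site window of 2500 bases. It was 13.1% with gaps over 1000 or over 5000 bases, 13.2% with outer regions, 12.03% with a fold of at least 5 and 13.8% with protein-coding start sites. The median fold was 9.60 with a fold of at least 5, by construction, and 9.59 with equal peak number. Median GC was 51%, 54% and 49% with shared bases only, equal peak number and a fold of at least 5. Genes with a region numbered 5252 when every gene within 100 kb counted and 960 when the region had to lie in the gene body. For the other changes the cause was not tested. The number of motifs above the flanks stayed between 8 and 10. The GATA share was 2.07% and 5.47%, and the AP-1 share 10.9% and 21.6%, with windows of 100 and 300 bases, by construction.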
